A study of Mus musculus with 9 samples.

Results

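The genes of MHC class I antigen presentation were followed in MyC-CaP mouse prostate cancer cells given recombinant NRG1, a ligand of HER3. The group comprised 10 genes chosen by symbol for their known roles: the heavy chains H2-K1 and H2-D1, the light chain B2m, the peptide transporter subunits Tap1 and Tap2, the loading chaperone Tapbp, the immunoproteasome subunits Psmb8, Psmb9 and Psmb10, and the class I transactivator Nlrc5. All 10 were among the 15552 protein-coding genes of the count table, and 9 of them were among the 11373 genes with enough counts to be tested. Nlrc5 was too low to measure.

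MyC-CaP cells were established from a prostate tumor of a mouse carrying a human MYC transgene under a probasin-based promoter, on the FVB strain background. The 9 libraries came from this line without further genetic change, with 3 biological replicates at each of 0, 12 and 24 h of NRG1 at 15 ng/mL. Every library, the 0 h libraries included, carries the label of NRG1 treatment, and all cells were first starved of serum and calcium. Libraries from cells kept in buffer alone were not analysed here, so time with NRG1 and time in starvation medium cannot be told apart. The labels do not say that the replicates came from cultures grown on separate days, so p-values measure the spread between these samples, which may be technical.

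Class I molecules display peptides from inside the cell to CD8 T cells and to natural killer cells. Proteasomes cut cytosolic proteins into peptides, the TAP transporter moves the peptides into the endoplasmic reticulum, and tapasin helps load them on a heavy chain paired with beta-2 microglobulin. In many epithelial tumors this machinery is expressed weakly at rest and rises with interferon, which replaces catalytic subunits of the constitutive proteasome with immunoproteasome subunits and acts in part through NLRC5 at the class I promoters.

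RNA of the class I heavy and light chains was abundant, and RNA of much of the peptide supply machinery was low. The changes measured over 24 h of NRG1 were small. Only RNA was measured, so protein and cell surface levels of class I are not known. At 12 h against 0 h, Tapbp and Psmb10 were lower by 10.4% and 12.9%, which makes 2 of 9 tested genes past an edgeR adjusted p of 0.05, where 25.5% of all tested genes passed. H2-K1 was higher by 10.1% at 24 h against 0 h, 1 of 9 where 17.4% of all genes passed. Between 12 and 24 h, 0 of 9 passed where 5.03% of all genes did. None of the 9 also reached 1.5-fold in any comparison, a threshold that 0.29% to 2.29% of all genes passed, so a count of 0 among 9 genes does not set them apart. In RNA from whole cultures, fewer cells expressing a gene and less RNA per cell cannot be told apart.

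The sequences before the start sites of H2-K1, H2-D1, B2m and Tap1 are shown because the proximal promoters of class I genes are known to carry shared elements through which interferon, NF-kB and the RFX, CREB and NF-Y factors act. They are the 250 bases upstream of the RefSeq start site on GRCm38.p6, written 5′ to 3′ on the strand of the gene: chr17:34000348-34000597 on the minus strand for H2-K1, and on the plus strand chr17:35262844-35263093 for H2-D1, chr2:122147437-122147686 for B2m and chr17:34187306-34187555 for Tap1. Capitals mark matches on either strand to an interferon element core (GAANNGAA or GAANNNGAA), a CRE half-site (the letters TGACG), the box of NF-Y and a kB site.
H2-K1: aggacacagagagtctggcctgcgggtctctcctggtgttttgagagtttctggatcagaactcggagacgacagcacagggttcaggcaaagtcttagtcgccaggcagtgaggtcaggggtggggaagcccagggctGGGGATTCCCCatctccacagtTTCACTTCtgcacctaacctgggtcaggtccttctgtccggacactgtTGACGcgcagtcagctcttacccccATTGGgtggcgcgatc
H2-D1: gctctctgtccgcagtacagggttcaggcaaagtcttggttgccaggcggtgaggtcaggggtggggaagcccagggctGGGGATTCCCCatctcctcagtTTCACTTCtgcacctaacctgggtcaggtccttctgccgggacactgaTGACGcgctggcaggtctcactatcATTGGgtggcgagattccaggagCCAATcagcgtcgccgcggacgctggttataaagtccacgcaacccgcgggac
B2m: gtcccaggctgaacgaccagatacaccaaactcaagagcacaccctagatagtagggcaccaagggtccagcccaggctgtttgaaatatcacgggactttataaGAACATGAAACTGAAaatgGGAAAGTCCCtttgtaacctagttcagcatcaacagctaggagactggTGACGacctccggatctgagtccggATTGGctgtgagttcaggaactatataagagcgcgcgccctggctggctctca
Tap1: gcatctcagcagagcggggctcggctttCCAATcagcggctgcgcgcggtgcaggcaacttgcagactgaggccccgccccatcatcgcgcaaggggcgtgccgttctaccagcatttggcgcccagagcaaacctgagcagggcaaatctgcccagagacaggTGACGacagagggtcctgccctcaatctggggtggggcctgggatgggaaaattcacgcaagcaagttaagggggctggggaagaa

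The box of NF-Y was searched by its letters, CCAAT, and both strands were read for each motif. The upstream sequences of H2-K1 and H2-D1 were alike, with 161 of 177 aligned bases identical (91.0%), and carried the 4 motifs in the same order. In H2-K1 the kB match began at -111, the interferon core at -89, the CRE half-site at -41 and the CCAAT box at -16, counted from the start site. In H2-D1 the corresponding matches began at -171, -149, -101 and -76, with a further CCAAT box at -53. These positions depend on the start site taken. H2-K1 had 2 RefSeq start sites, and the one nearest the 5′ end of its gene model was used. The H2-D1 start site lay 364 bases from the 5′ end of its own model. B2m carried the interferon core at -145 and again at -139, overlapping, then the kB match at -126, the CRE half-site at -78 and the CCAAT box at -53. Among 32851 RefSeq promoter windows of this length, the interferon core matched in 31.2%, the CRE half-site in 17.8%, the CCAAT box in 33.8% and the kB site in 7.25%. All 4 motifs stood in 41 windows (0.125%), H2-K1, H2-D1 and B2m among them, although the motifs had been chosen because class I promoters are known to hold them. The Tap1 window held a CCAAT box at -222 and a CRE half-site at -86. Psmb9 is transcribed from the opposite strand with its start site 226 bases from that of Tap1, so that most of the window printed for Tap1 is also the Psmb9 promoter. Promoter windows matched 8 of the 10 genes by symbol.

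Of the 10 genes, 7 lie on chromosome 17 in or beside the H2 complex. On GRCm38 these are Tapbp (33915899 to 33929292), H2-K1 (33996017 to 34000347), Psmb9 (34181987 to 34187764), Tap1 (34187553 to 34197225), Psmb8 (34197721 to 34201454), Tap2 (34203527 to 34216321) and H2-D1 (35262730 to 35267499). B2m lies on chromosome 2 (122147686 to 122153083), and Nlrc5 (94434356 to 94527272) and Psmb10 (105935735 to 105938444) lie on chromosome 8. Whether counting used the strand of the reads was not stated, which matters where genes overlap. In the GENCODE models, 24.9% of the exonic bases of Tapbp lay under the antisense gene Gm19412 and 4.11% under Zbtb22 on the same strand. Opposite-strand genes covered 18.5% of Tap2 (Gm20496 and Gm15821), 14.7% of Psmb8 (Gm20496), 5.79% of Psmb9 and 3.87% of Tap1, the last pair overlapping each other. No exonic base of H2-K1, H2-D1, B2m or Psmb10 was covered by another gene. Heavy chain genes also have close paralogs. Of the 150-base windows along its longest coding transcript, H2-D1 shared 35 of 1953 (1.79%) exactly with another gene, H2-Q1, and H2-K1 shared 0 of 1470. FVB mice carry the q haplotype of the H2 complex and the reference genome the b haplotype, so reads from polymorphic stretches of H2-K1 and H2-D1 can fail to align or go to a paralog, and the part of this in the heavy chain values was not tested.

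Library totals ran from 28467089 to 39239760 counts, at which 3 counts, taken here as the detection floor, equal 0.0764 to 0.106 CPM, the counts of a gene scaled to a common library size. Levels are given as CPM scaled by TMM, the trimmed mean of M values of edgeR. Markers of the labelled epithelial-like cell type were mixed, with Krt8 at 17.3 to 26.2 CPM and Krt19 at 80.2 to 144 CPM, but Epcam at no more than 3, Cdh1 at no more than 4 and Krt18 at no more than 17 counts in any library. Of the leukocyte markers, Ptprc reached 8 counts at most, and 6 of the 7 in the table had 10 counts or fewer in every library. Their summed level was 0.390 to 0.868 CPM at 0 h, 0.708 to 0.914 CPM at 12 h and 0.560 to 1.11 CPM at 24 h, mostly Cd68 at 11 to 31 counts. Summed fibroblast markers stayed between 0.210 and 0.628 CPM, and summed endothelial markers at or below 0.299 CPM.

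To compare levels between genes, CPM was divided by the kilobases of exon sequence and averaged over the 9 libraries. B2m led with 521 ± 19.4 CPM per kilobase (SD, n = 9), above 99.3% of the tested genes, and H2-D1 followed with 156 ± 5.53, above 97.8%. Tapbp at 42.7 ± 2.35 and H2-K1 at 39.9 ± 2.20 came next and were not separated by their spread. Tapbp exceeded H2-K1 in 7 of 9 libraries on this scale, and with the length of the longest coding transcript in place of all exons the order turned, with H2-K1 at 72.4 and Tapbp at 53.5 CPM per kilobase. Psmb10 stood at 17.1 ± 1.18 CPM per kilobase.

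Below these the levels per kilobase dropped. Tap2, which with Tap1 forms the peptide transporter, was at 3.30 ± 0.282 CPM per kilobase (SD, n = 9), 5.17-fold below Psmb10 and above only 31.7% of the tested genes. Psmb8 was at 0.935 ± 0.141, Tap1 at 0.668 ± 0.137 and Psmb9 at 0.231 ± 0.0386 CPM per kilobase, above 15.0%, 12.6% and 6.35% of the tested genes. Over the length of the longest coding transcript they stood at 1.94, 1.24 and 0.626 CPM per kilobase, in the same order. The ranges of Psmb8 and Tap1 overlapped although Psmb8 was the higher in 9 of 9 libraries. Apart from this pair and that of Tapbp and H2-K1, neighbours in this order had ranges that did not overlap. The plot of level per kilobase shows the gap between the abundant and the scarce genes at every time point.

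**Figure D1:**
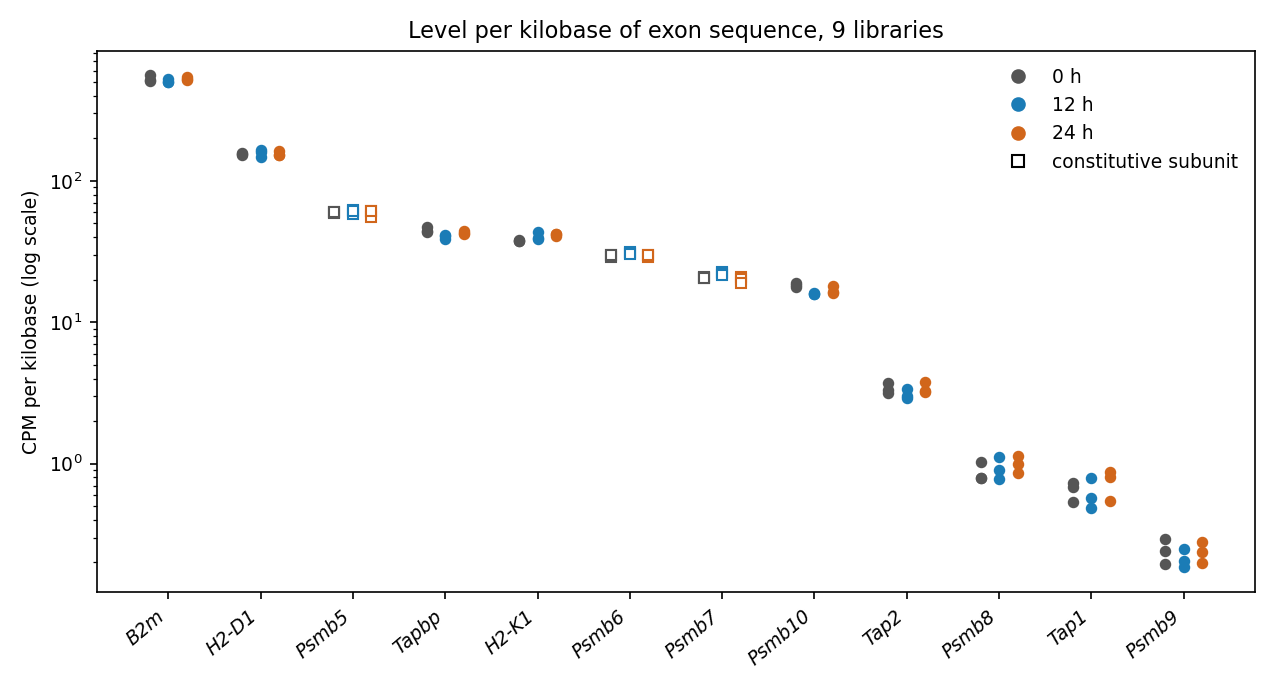
Level of the 9 measurable class I genes (filled circles) and of the constitutive catalytic subunits Psmb5, Psmb6 and Psmb7 (open squares) in CPM per kilobase of exon sequence on a log axis, 1 point per library, colored by time. B2m lies near 521 and Psmb9 near 0.231 CPM per kilobase, and the libraries of 1 gene lie close together at all time points.

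The heavy and light chains were examined first. H2-K1, a classical heavy chain, measured 109.6, 111 and 112 CPM in the 3 libraries at 0 h, 113, 115 and 128 CPM at 12 h, and 123, 119 and 124 CPM at 24 h. Every library at 12 and 24 h lay above every library at 0 h, and the 12 h libraries spread widest because of replicate 3. The log2 fold change was 0.098 ± 0.044 (SE) at 12 h, which missed the threshold (edgeR adjusted p = 0.114), and 0.14 ± 0.044 at 24 h, which passed (edgeR adjusted p = 0.0363, n = 3 per time). The 24 h result was thin. It was lost when any 1 of 5 libraries was left out, with edgeR adjusted p of 0.0951, 0.0767 and 0.0530 without replicates 1, 2 and 3 at 0 h, and of 0.0960 and 0.119 without replicates 1 and 3 at 24 h. With the counts of H2-K1 and H2-D1 summed as 1 gene, the log2 fold change was 0.040 (edgeR adjusted p = 0.546), a sum made up mostly of H2-D1, which therefore says little of H2-K1.

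H2-D1, the other classical heavy chain of the table, measured 409, 393 and 398 CPM at 0 h, 382, 427 and 409.6 CPM at 12 h, and 419.99, 395 and 394 CPM at 24 h. Its groups overlapped at all times, with log2 fold changes of 0.022 ± 0.042 at 12 h and 0.011 ± 0.042 at 24 h against 0 h (SE, edgeR adjusted p = 0.749 and 0.897). B2m, the invariant light chain, measured 479.7, 439.5 and 443 CPM at 0 h, 449, 427 and 433 CPM at 12 h, and 469, 446 and 449.9 CPM at 24 h. Its groups overlapped as well, with log2 fold changes of -0.058 ± 0.040 at 12 h and 0.0027 ± 0.040 at 24 h against 0 h (SE, edgeR adjusted p = 0.317 and 0.976). The 95% interval of the 24 h change ran from -0.081 to 0.087 for B2m and from -0.078 to 0.10 for H2-D1 on the log2 scale.

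Per kilobase, H2-D1 exceeded H2-K1 by 4.11 ± 0.126 times at 0 h, 3.90 ± 0.289 times at 12 h and 3.76 ± 0.138 times at 24 h (SD, n = 3). The summed heavy chains equaled 0.366 ± 0.0123 of B2m at 0 h, 0.391 ± 0.0286 at 12 h and 0.374 ± 0.00140 at 24 h on the same scale. Light chain RNA was the more abundant in each library, between 2.43 and 2.85 times the summed heavy chains. With the longest coding transcripts H2-D1 exceeded H2-K1 by 2.78 ± 0.0849 times at 0 h, and light chain RNA was between 1.81 and 2.13 times the summed heavy chains. These ratios also rest on heavy chain reads that aligned to another haplotype.

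**Figure D2:**
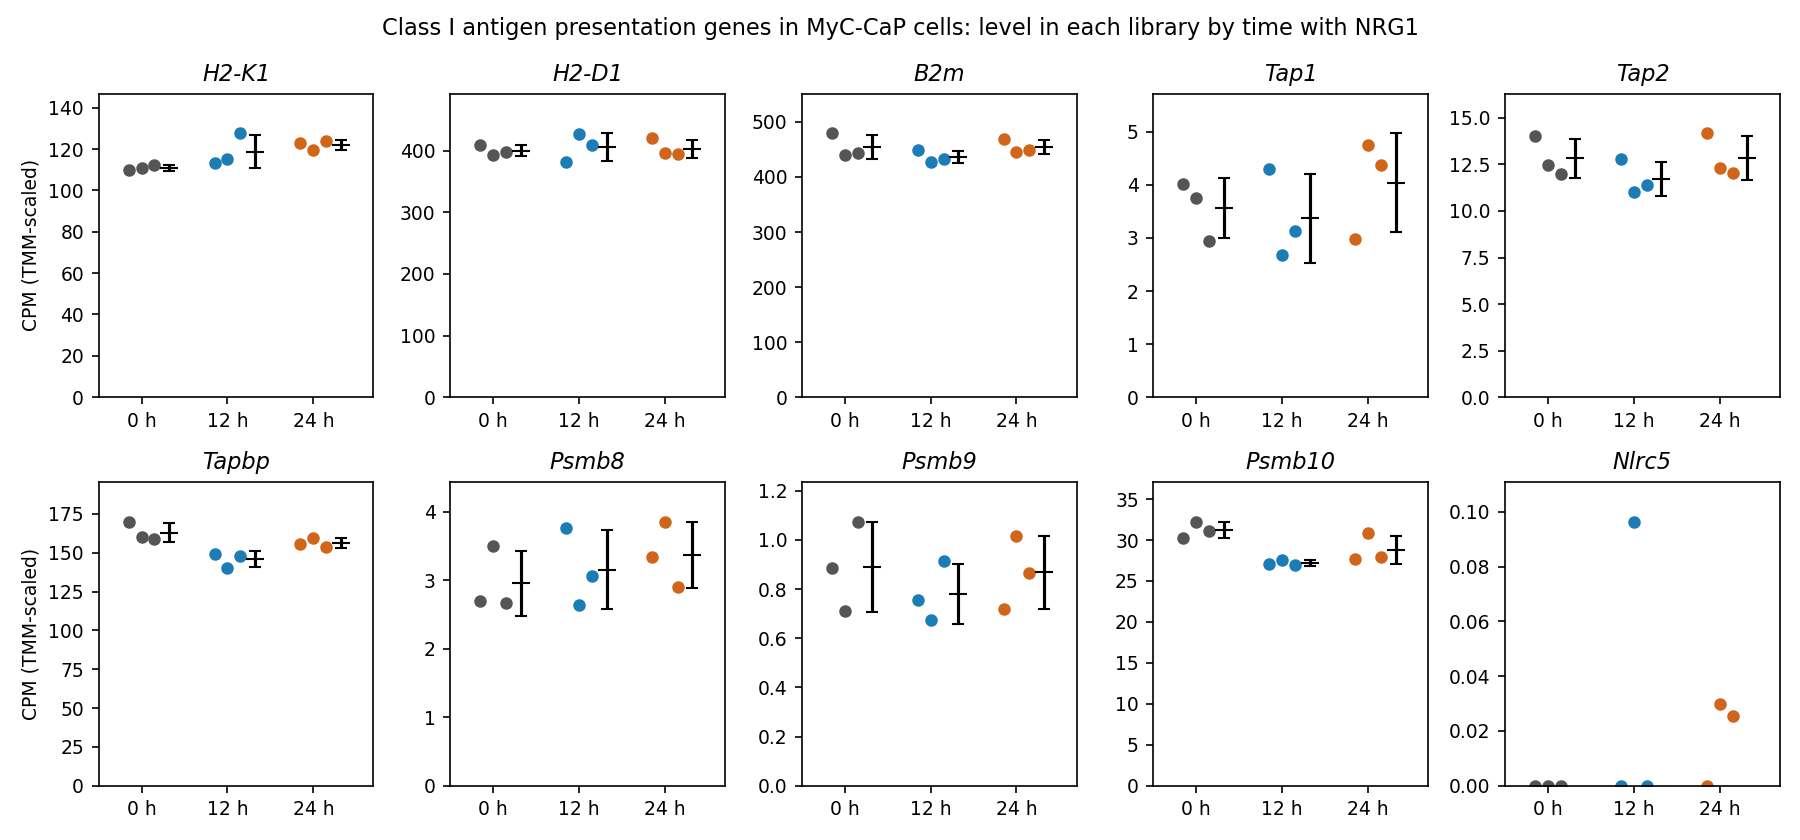
Level of each of the 10 class I genes in CPM on linear axes that start at 0, with 1 point per library at 0, 12 and 24 h and, beside the points, the mean and SD of the 3 libraries (not drawn for Nlrc5). The 12 h libraries of Tapbp and Psmb10 lie below all 0 h libraries, and the 24 h libraries of H2-K1 lie above all 0 h libraries.

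Peptide transport and loading came next. Tapbp encodes tapasin, which bridges the TAP transporter to empty class I molecules. It measured 170.1, 159.9 and 159 CPM at 0 h, 149, 140.4 and 148 CPM at 12 h, and 156, 159.6 and 154 CPM at 24 h. All 12 h libraries lay below all others, and the 24 h libraries overlapped those at 0 h. Tapbp fell by 0.16 ± 0.039 (SE) on the log2 scale at 12 h (edgeR adjusted p = 0.0069), a call kept without each of the 9 libraries in turn. At 24 h the log2 fold change was -0.060 ± 0.039 against 0 h (edgeR adjusted p = 0.327) and 0.098 ± 0.039 against 12 h (edgeR adjusted p = 0.166).

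Tap1 had 83 to 172 counts per library. It measured 4.01, 3.76 and 2.93 CPM at 0 h, 4.30, 2.67 and 3.13 CPM at 12 h, and 2.98, 4.76 and 4.38 CPM at 24 h, so that each time point held low and high libraries and all groups overlapped. Its log2 fold change was 0.26 ± 0.19 (SE) between 12 and 24 h, the largest among the class I genes in that comparison (edgeR adjusted p = 0.494, 95% interval from -0.15 to 0.67). Tap2 measured 14.0, 12.5 and 12.0 CPM at 0 h, 12.8, 11.03 and 11.4 CPM at 12 h, and 14.2, 12.3 and 12.0 CPM at 24 h. Its groups overlapped, with log2 fold changes of -0.12 ± 0.091 at 12 h and 0.00094 ± 0.090 at 24 h against 0 h (SE, edgeR adjusted p = 0.354 and 0.997).

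The immunoproteasome subunits were then set beside the constitutive subunits they replace. Psmb10, which takes the place of Psmb7, measured 30.3, 32.2 and 31.1 CPM at 0 h, 27.1, 27.6 and 26.9 CPM at 12 h, and 27.7, 30.8 and 27.9 CPM at 24 h. All 12 h libraries lay below all 0 h and all 24 h libraries. Psmb10 fell by 0.20 ± 0.056 (SE) on the log2 scale at 12 h (edgeR adjusted p = 0.0149). Without replicate 2 at 0 h the change was -0.17 and missed the threshold (edgeR adjusted p = 0.0672). At 24 h the log2 fold change against 0 h was -0.12 ± 0.056 (edgeR adjusted p = 0.162).

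Psmb8, which takes the place of Psmb5, had 76 to 135 counts per library and measured 2.697, 3.50 and 2.67 CPM at 0 h, 3.77, 2.64 and 3.07 CPM at 12 h, and 3.34, 3.86 and 2.90 CPM at 24 h. Psmb9, which takes the place of Psmb6, had 21 to 37 counts per library and measured 0.887, 0.710 and 1.07 CPM at 0 h, 0.754, 0.675 and 0.914 CPM at 12 h, and 0.721, 1.02 and 0.866 CPM at 24 h. Both genes overlapped between all time points. At 24 h against 0 h the log2 fold change was 0.17 ± 0.17 for Psmb8 and -0.026 ± 0.27 for Psmb9 (SE, edgeR adjusted p = 0.553 and 0.966). The 95% interval for Psmb9 ran from -0.59 to 0.54, so that a fall of 1.5-fold lay within it at this depth.

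Per kilobase, the constitutive partner was far ahead for these low subunits. At 0 h, Psmb5 exceeded Psmb8 by 69.5 ± 10.8 times and Psmb6 exceeded Psmb9 by 125 ± 24.1 times (SD, n = 3), and over all 9 libraries the ratios ran from 48.7 to 79.8 and from 101 to 169. With the longest coding transcripts as lengths, the 0 h ratios were 33.4 ± 5.20 and 108 ± 20.9. Psmb10 was nearer to its partner. Per kilobase of all exons it equaled 0.869, 0.904 and 0.889 of Psmb7 at 0 h, 0.702, 0.722 and 0.734 at 12 h, and 0.776, 0.892 and 0.858 at 24 h. The 12 h ratios lay below all others. With the longest coding transcripts the ratio of Psmb10 to Psmb7 averaged 0.391 at 0 h, with an SD of 0.00770 over 3 libraries, 0.317 at 12 h (SD 0.00731) and 0.371 at 24 h (SD 0.0263). Psmb7 itself measured 70.6 ± 0.885 CPM at 0 h and 75.9 ± 2.05 CPM at 12 h (SD, n = 3, log2 fold change 0.11, edgeR adjusted p = 0.0843). Psmb5, Psmb6 and Psmb7 averaged 59.9, 30.0 and 21.0 CPM per kilobase.

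Nlrc5, the transactivator of class I genes, had 0 counts in each of the 3 libraries at 0 h, which allows a level of up to 0.0789 to 0.106 CPM depending on the library. It had 0, 3 and 0 counts at 12 h and 0, 1 and 1 counts at 24 h, or 5 counts in all 9 libraries together. No library exceeded the floor, so no fold change was computed.

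The class I genes were next read against all genes of each comparison. At 12 h against 0 h, 2 of the 9 tested genes passed an adjusted p of 0.05, both lower, against 25.5% of all tested genes in either direction. At the added threshold of 1.5-fold, 0 of 9 were called, against 2.29% of all genes. The values of 3 genes, H2-K1, Tapbp and Psmb10, did not overlap between these time points, against 38.4% of all genes. The median log2 fold change of the 9 was -0.068, beside -0.0028 for all genes.

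In the comparison of 24 h against 0 h, 1 of 9 passed, H2-K1, against 17.4% of all genes. None of the 9 was called at 1.5-fold (2.27% of all genes), and H2-K1 alone did not overlap (35.5% of all genes). The median was 0.0027, beside -0.0065 for all genes. At 24 h against 12 h, 0 of 9 passed by edgeR, against 5.03% of all genes. DESeq2 also passed 0 there, but gave no adjusted p for Psmb9. An unadjusted p of less than 0.05 was reached by 1 of 9, Tapbp, against 20.1% of all genes. The 1.5-fold threshold called 0 (0.29% of all genes), Tapbp and Psmb10 did not overlap (25% of all genes), and the median was 0.081, beside 0.0023. Unadjusted p values of less than 0.05 numbered 3 of 9 at 12 h and 2 of 9 at 24 h against 0 h, beside 36.9% and 30.2% of all genes, and DESeq2 passed the same genes as edgeR, with 2 and 1. The comparisons share libraries and are not independent of each other.

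How large a change could have been missed was read from the 95% intervals. The interval lay within 1.5-fold in either direction for 8 of 9 genes at 12 h against 0 h, and for 7 of 9 in the other comparisons. Psmb9 had a wider interval in each comparison, and Tap1 in those of 24 h. The lowest bound was -0.77 and the highest 0.74 on the log2 scale, both for Psmb9.

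**Figure D3:**
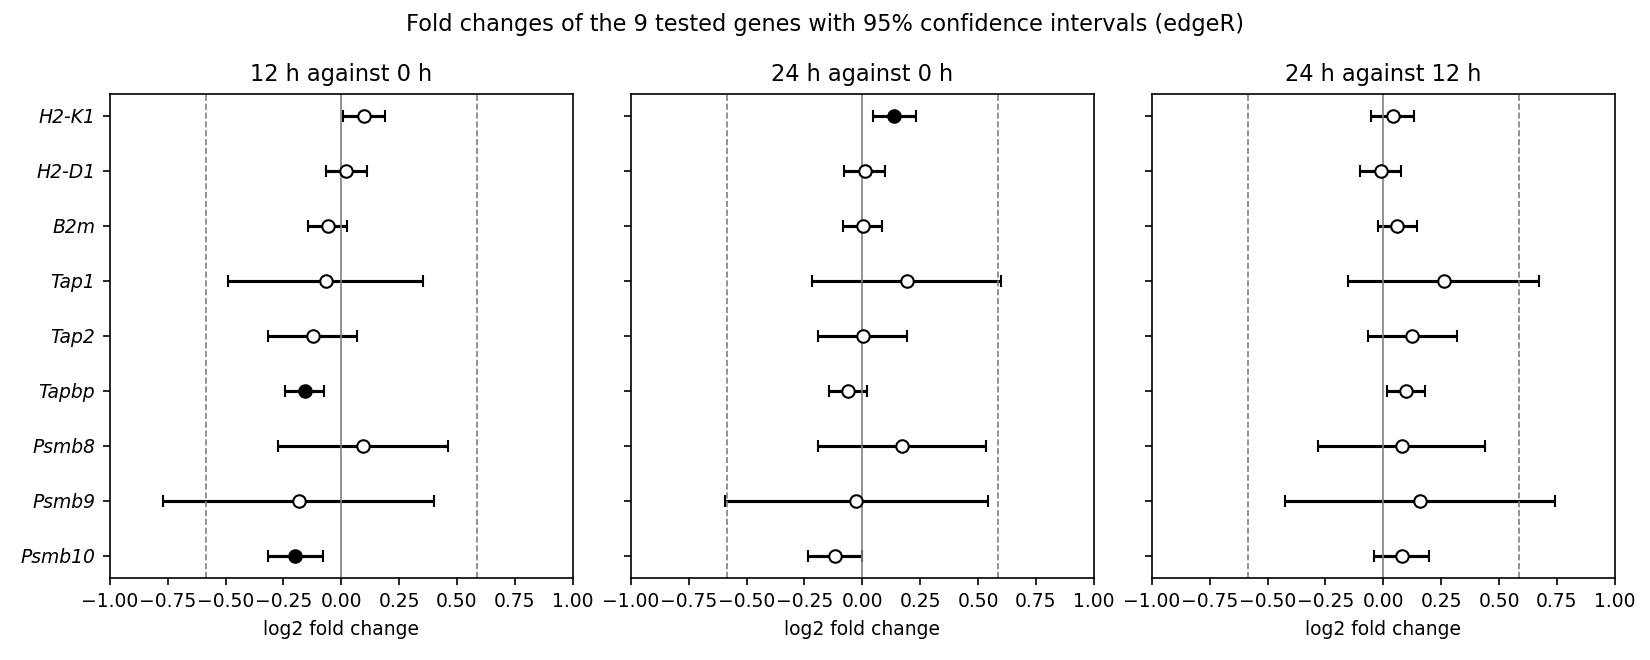
Log2 fold changes (horizontal axis) of the 9 tested class I genes in the 3 comparisons, with bars for the 95% confidence interval of the edgeR fit, filled circles where the adjusted p was at most 0.05, and dashed lines at 1.5-fold. Filled circles mark Tapbp and Psmb10 at 12 h against 0 h and H2-K1 at 24 h against 0 h, and all 3 lie well inside the dashed lines.

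Other genes of the pathway were examined as lists. Of 13 further class I heavy chain genes in the table, 7 could be tested, and edgeR and DESeq2 passed 0 of them in each comparison. At 12 h against 0 h, 24 h against 0 h and 24 h against 12 h, 0, 1 and 1 had an unadjusted edgeR p of less than 0.05. Of all tested genes, 25.5%, 17.4% and 5.03% passed by edgeR, and 36.9%, 30.2% and 20.1% had such an unadjusted p. H2-Q1, the gene that shares sequence with H2-D1, had the largest log2 fold change of this list at 24 h against 0 h, 0.71 ± 0.27 (SE, edgeR adjusted p = 0.0839), from 0.716 ± 0.222 to 1.19 ± 0.187 CPM (SD, n = 3). H2-Q1 was picked out with its values in view.

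Peptide loading and trimming genes numbered 11. At 24 h against 0 h all 11 had negative log2 fold changes and 3 fell past the threshold, with a list median of -0.096. Among all tested genes, 52.1% had negative log2 fold changes in this comparison and 7.76% fell past the threshold. Sec61a1, a subunit of the translocation channel of the endoplasmic reticulum, fell by 0.19 ± 0.036 (SE) on the log2 scale (edgeR adjusted p = 0.0014), from 424 ± 14.2 to 372 ± 7.51 CPM (SD, n = 3). Canx, the chaperone calnexin, fell by 0.15 ± 0.032 (SE, edgeR adjusted p = 0.0041). Erap1, the aminopeptidase that trims peptides in the endoplasmic reticulum, fell by 0.18 ± 0.052 (SE) on the log2 scale at 24 h (edgeR adjusted p = 0.0231). At 12 h Erap1 had fallen by 0.17 ± 0.052 (SE, edgeR adjusted p = 0.0254). It made up 9.09% of the list, where 11.9% of all tested genes fell past the threshold. Leaving out the 0 h replicates 2 and 3 and the 24 h replicates 1 and 2 in turn lost the 24 h call of Erap1 (edgeR adjusted p = 0.0814, 0.0604, 0.0876 and 0.0969). Leaving out the 0 h replicates 2 and 3 and the 12 h replicates 1 and 2 in turn lost its 12 h call (edgeR adjusted p = 0.0888, 0.0641, 0.132 and 0.0605), and with it the only call of the list. Between 12 and 24 h, Lap3, an aminopeptidase, was the 1 gene past the threshold (log2 fold change -0.15 ± 0.040, SE, edgeR adjusted p = 0.0403). It made up 9.09% of the list, where 3.06% of all tested genes fell past the threshold. That call was lost when the 0 h replicate 3, the 12 h replicates 1 and 2 or any of the 24 h replicates was left out (edgeR adjusted p from 0.0583 to 0.159).

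Of the 8 genes of the PA28 activators and constitutive catalytic subunits, edgeR and DESeq2 passed 0 in each comparison. An unadjusted edgeR p of less than 0.05 was reached by 4, 1 and 1. Of all tested genes, 25.5%, 17.4% and 5.03% passed by edgeR in these comparisons, and 36.9%, 30.2% and 20.1% reached that unadjusted p. Leaving out replicate 3 at 12 h raised the count at 12 h against 0 h to 4, in a fit where 2760 of 11520 tested genes passed. Among class II genes, 3 of 6 in the table could be tested and 0 passed by either tool, with 0, 1 and 0 at an unadjusted p of less than 0.05, and the class II transactivator Ciita had at most 6 counts in a library.

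Regulators of class I expression numbered 29, all of them tested. At 12 h against 0 h, 4 rose and 3 fell, at 24 h against 0 h 3 rose, and at 24 h against 12 h 4 rose. These are 24.1%, 10.3% and 13.8% of the list, beside 25.5%, 17.4% and 5.03% of all tested genes in either direction. Counted in this way, the shares against 0 h did not exceed those of all genes. Of all tested genes, 9.67% rose past the threshold at 24 h against 0 h and 1.97% at 24 h against 12 h. Stat2 and Irf9, which act in the transcriptional response to interferon, were among those that fell at 12 h. Stat2 measured 26.6, 26.1 and 25.4 CPM at 0 h, 20.4, 19.9 and 18.8 CPM at 12 h, and 26.7, 26.2 and 26.6 CPM at 24 h. The 12 h libraries lay below all others. It fell by 0.40 ± 0.056 (SE) on the log2 scale at 12 h (edgeR adjusted p = 6.7e-05) and was higher by 0.43 ± 0.056 at 24 h against 12 h (edgeR adjusted p = 0.00036). Irf9 measured 11.8, 11.5 and 12.2 CPM at 0 h, 9.66, 8.27 and 7.50 CPM at 12 h, and 12.5, 12.02 and 12.9 CPM at 24 h, again with all 12 h libraries below all others. Its log2 fold change was -0.48 ± 0.093 (SE) for the earlier step (edgeR adjusted p = 0.0012) and 0.55 ± 0.092 for the later step (edgeR adjusted p = 0.0023). The kinase Tyk2 was higher by 0.15 ± 0.038 (SE) at 24 h against 0 h (edgeR adjusted p = 0.0102). Between 12 and 24 h Tyk2 was higher by 0.19 ± 0.038 and the kinase Jak2 by 0.18 ± 0.035 (SE, edgeR adjusted p = 0.0093 and 0.0062), and without replicate 2 at 24 h Tyk2 missed the threshold (edgeR adjusted p = 0.0502). Jak2 had fallen by 0.13 ± 0.035 at 12 h against 0 h (SE, edgeR adjusted p = 0.0125). That call was lost without 0 h replicate 3 or 12 h replicate 1 (edgeR adjusted p = 0.0658 and 0.0509). At 24 h against 0 h Jak2 did not pass (log2 fold change 0.055, edgeR adjusted p = 0.318).

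Ezh2, the methyltransferase of Polycomb complex PRC2, which is known to repress class I genes in some tumors, rose by 0.33 ± 0.040 (SE) on the log2 scale at 12 h and by 0.27 ± 0.040 at 24 h against 0 h (edgeR adjusted p = 1.7e-05 and 0.00013). Nfyb, a subunit of the CCAAT-binding factor NF-Y, rose by 0.29 ± 0.056 and 0.25 ± 0.056 (SE, edgeR adjusted p = 0.0011 and 0.0051). Leaving out replicate 3 at 12 h raised the number of regulators past the threshold at 24 h against 0 h from 3 to 5. In that fit 2359 of 11520 tested genes passed. Irf1, an interferon-induced activator of class I genes named here for that role, measured 54.2 ± 3.58, 48.6 ± 2.87 and 52.4 ± 1.63 CPM at 0, 12 and 24 h (SD, n = 3), and its change at 12 h missed the threshold (log2 fold change -0.15, edgeR adjusted p = 0.0528).

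Interferon-stimulated genes other than the class I genes served as a further list, of which 17 of 21 in the table could be tested. At 12 h against 0 h, 5 fell and 0 rose, with a median log2 fold change of -0.25. With 24 h against 0 h, 5 rose and 0 fell, with a median of 0.39. Between 12 and 24 h, 7 rose and 0 fell, with a median of 0.67, and all 17 had positive log2 fold changes. The genes past the threshold were 29.4%, 29.4% and 41.2% of this list, beside 25.5%, 17.4% and 5.03% of all tested genes in either direction. Counted in this way, the share at 12 h was close to that of all genes. In the direction of the list alone, 11.9% of all tested genes fell past the threshold at 12 h. At 24 h against 0 h 9.67% rose past it, and at 24 h against 12 h 1.97%. The medians of the class I genes in the same comparisons were -0.068, 0.0027 and 0.081. The most abundant genes of the list were Ifit2, Bst2, Parp14 and Ifi35, at means of 51.3, 49.4, 28.5 and 24.8 CPM. Their log2 fold changes at 12 h against 0 h were -0.25, 0.027, -0.32 and -0.18. Those of Ifit2 and Parp14 passed the threshold (edgeR adjusted p = 0.00096 and 0.0048). At 24 h against 0 h the changes were -0.014, 0.21, 0.12 and -0.16, and that of Bst2 passed (edgeR adjusted p = 0.0088). At 24 h against 12 h they were 0.24, 0.18, 0.44 and 0.017. There Ifit2, Bst2 and Parp14 passed (edgeR adjusted p = 0.0084, 0.0487 and 0.0028) and Ifi35 did not. Irf7 and Xaf1, with larger changes in both comparisons of 24 h, averaged only 1.77 and 0.819 CPM. The counts depended on single libraries: 3 remained without replicate 1 at 12 h in the first comparison, 3 without the 0 h replicate 3 and 3 without the 24 h replicate 2 in the second, and 4 without the 12 h replicate 1 and 4 without the 24 h replicate 2 in the last.

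Oasl2, an antiviral gene of this list, measured 3.23, 3.21 and 2.67 CPM at 0 h, 1.93, 1.80 and 2.19 CPM at 12 h, and 3.996, 4.70 and 4.10 CPM at 24 h. The 12 h libraries lay below and the 24 h libraries above all others. At 24 h against 12 h its log2 fold change was 1.11 ± 0.151 (SE, edgeR adjusted p = 0.00044). Irf7, the transcription factor that amplifies interferon responses, had a log2 fold change of 1.57 ± 0.210 in the same comparison (SE, edgeR adjusted p = 0.00040), and Parp14 one of 0.44 (edgeR adjusted p = 0.0028). The plot of the gene lists sets these changes beside those of the class I genes.

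Irf7, Oasl2, Parp14 and Ifit1, an interferon-induced RNA-binding protein, fell at 12 h against 0 h, with log2 fold changes of -0.72, -0.62, -0.32 and -0.37 (edgeR adjusted p = 0.0286, 0.0081, 0.0048 and 0.0395). Xaf1, Irf7, Oasl2 and Isg15, a ubiquitin-like modifier, rose at 24 h against 0 h, with log2 fold changes of 1.06, 0.85, 0.49 and 0.39 (edgeR adjusted p = 0.0374, 0.0052, 0.0225 and 0.0116). Ifit1 and Xaf1 also rose between 12 and 24 h, by 0.67 and 1.33 on the log2 scale (edgeR adjusted p = 0.0046 and 0.0358). By DESeq2 the 12 h fall of Ifit1 and the 24 h rise of Xaf1 missed the threshold (DESeq2 adjusted p = 0.0714 and 0.0539), and so did the fall of Ifit1 in edgeR on only the 6 libraries compared (edgeR adjusted p = 0.0634). Several of these calls were lost when a library was left out. For the 12 h fall this held for Irf7 (0 h replicate 3, 12 h replicates 1 and 2, edgeR adjusted p up to 0.133) and Ifit1 (0 h replicate 2, 12 h replicates 1 and 2, 24 h replicate 2, up to 0.210). For the 24 h rise against 0 h it held for Xaf1 (0 h replicates 2 and 3, 24 h replicate 2, edgeR adjusted p up to 0.241), Oasl2 (0 h replicate 3, 24 h replicate 2, up to 0.101) and Isg15 (0 h replicate 1, 24 h replicate 3, up to 0.0586). Xaf1 lost its later call without 12 h replicate 1 or 2 and without 24 h replicate 1 or 2 (edgeR adjusted p up to 0.201).

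**Figure D4:**
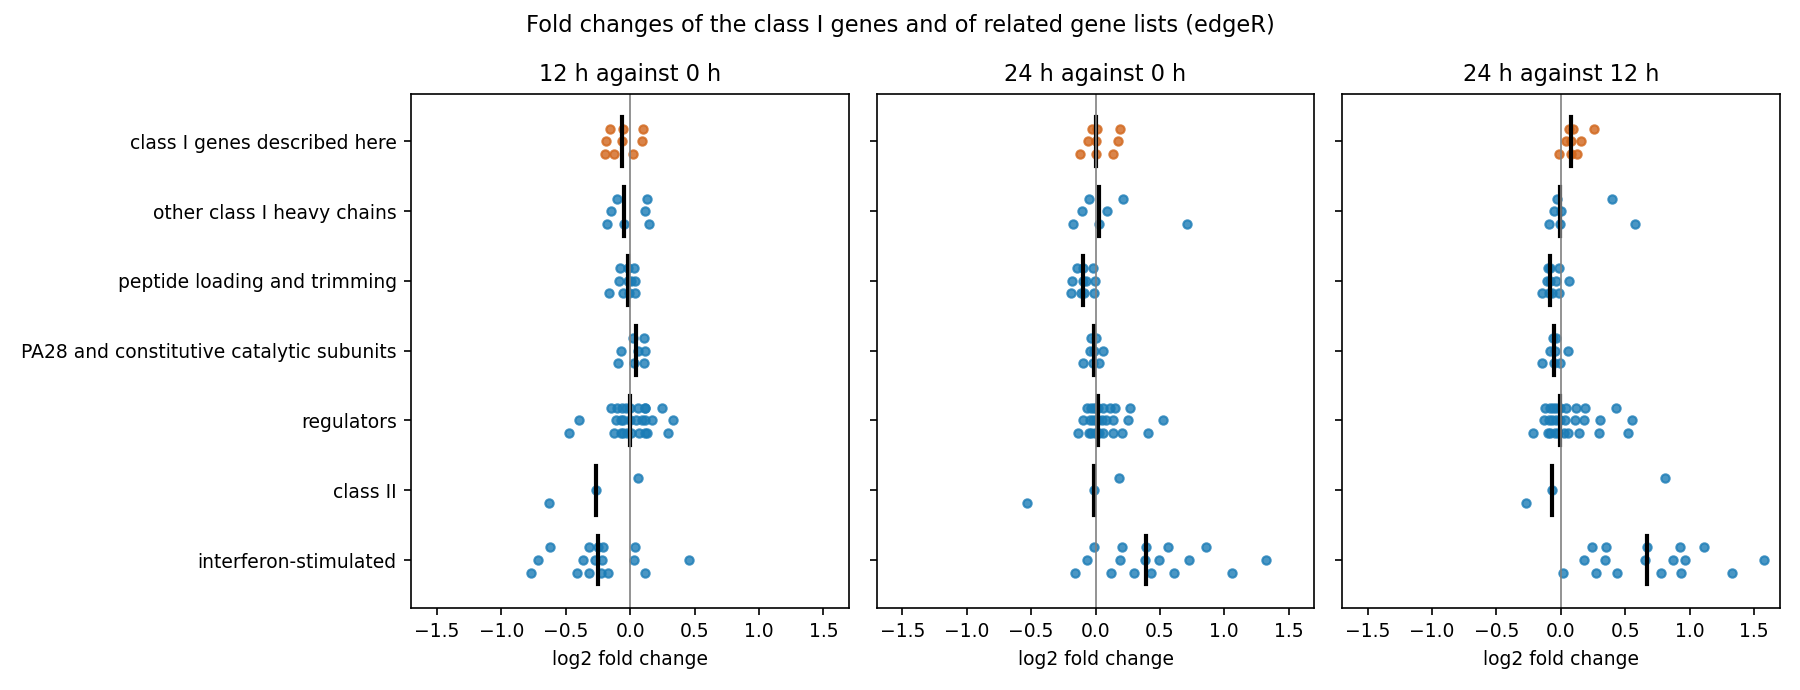
Log2 fold changes (horizontal axis) of the 9 tested class I genes (orange) and of 6 related gene lists (blue) in the 3 comparisons, 1 point per tested gene with vertical bars at the medians. Class I genes stay close to 0 in each panel, between -0.20 and 0.26, while the median of the interferon-stimulated genes lies at -0.25, 0.39 and 0.67. At 24 h against 0 h the most abundant genes of that list, Ifit2, Bst2, Parp14 and Ifi35, lie between -0.16 and 0.21. Of these, Bst2 passed the threshold (edgeR adjusted p = 0.0088).

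Finally, the class I genes were compared with each other over the 9 libraries. Of the 36 pairs among the 9 tested genes, 23 had a positive Pearson r of log2 CPM, with a median of 0.093. Tap1, Psmb8 and Psmb9 rest on few counts, down to 83, 76 and 21 in a library. The SD of each other tested gene was 3.54% to 8.55% of its mean over the libraries. With so little variation a low r cannot tell whether the genes shared a pattern. B2m and Tap2 were the most alike (r = 0.94), followed by B2m and Tapbp (r = 0.72) and Tapbp and Psmb10 (r = 0.72). H2-D1 and Tap1 were the most opposed (r = -0.73), and H2-K1 and Psmb10 had r = -0.61. The libraries share time points and depth, and these values are a description. The mean standardized level of the 9 genes was lowest in replicate 2 at 12 h (-0.86 SD) and highest in replicate 2 at 24 h (0.55 SD) and replicate 1 at 0 h (0.53 SD). Of 9410 other genes with a mean of at least 5 CPM, the 8 whose log2 CPM followed this mean most closely over the 9 libraries were Osbpl2 (r = 0.95), Rpl34, Cobll1, Smyd3, Cacnb3, Castor2, Scaf1 and Mif4gd (r = 0.90). None of the 8 belongs to the gene lists described above.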

How the data were processed

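RNA was sequenced as paired-end 150 bp reads from 9 MyC-CaP libraries. The authors trimmed adaptors with Cutadapt, aligned to GRCm38.p6 with STAR and counted with featureCounts on a GENCODE annotation. The deposited values are raw counts per gene, not normalized, in 1 table. Strand use and the handling of reads that match several genes were not stated. Depth ran from 28467089 to 39239760 counts per library.

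Counts were filtered with filterByExpr, scaled by TMM and fitted over all 9 libraries in edgeR 4.0.16 (R 4.3.3) with glmQLFit, time as the only term. Pairs of time points were tested with glmQLFTest and Benjamini-Hochberg adjustment over 11373 genes. The procedure was tested on simulated data. A gene passed at an adjusted p of at most 0.05 and was called when its fold was also at least 1.5. Intervals are at 95%, and log2 CPM used a prior count of 2. Exon lengths came from GENCODE vM21, which holds 15541 of the 15552 identifiers on the same build. Alternatives were DESeq2 1.42.0, other scalings and filters, a replicate block, only the libraries compared, each library left out, and, chosen after seeing the data, summed heavy chain counts and the longest coding transcript. Named genes were all 10 class I genes, Psmb5 to Psmb7, up to 4 genes per list and comparison with the largest changes past the threshold, and the 8 genes most alike in pattern. The members and lists were chosen with earlier results of these data known.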

Additional observations from a re-analysis of the deposited data

How the results depend on the processing

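DESeq2, total counts, DESeq2 size factors in edgeR, no filter, a minimum of 1 CPM in 3 libraries, the replicate block and fits of only the 6 libraries compared each passed 2 class I genes at 12 h against 0 h, 1 at 24 h against 0 h and 0 at 24 h against 12 h, and these were Tapbp, Psmb10 and H2-K1 as before. Psmb9 was left out by the minimum of 1 CPM, and DESeq2 gave it no adjusted p at 24 h against 12 h. With a library left out the counts ran from 1 to 2, from 0 to 1 and 0 throughout. Pairing by replicate number was not evident. Correlations of deviations ran from -0.074 to 0.13 for the same number and from -0.13 to 0.12 for other numbers. Such values cannot exclude a pairing, and the block is given as an alternative. Of the class I fold changes under these settings, 406 kept direction and side of the threshold, 7 lost the threshold and 21 changed sign, none of the last past the threshold. Over all genes, 572 passed at 24 h against 12 h and 950 without the filter. With a library left out, the number ran from 214 without replicate 1 at 12 h to 879 without replicate 3 at 12 h. The chi-square of the counts per degree of freedom was 9.92 and 10.1 between this replicate 3 and replicates 1 and 2 at 12 h. Between those replicates 1 and 2 it was 4.26. The loading and trimming list passed 1 gene at 24 h against 12 h, 2 by DESeq2 and 0 with total counts.

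Sign changes, on the log2 scale, were these. H2-D1 at 24 h against 12 h was 0.0027 and Erap1 0.0011 with total counts, H2-D1 was 0.00074 with summed heavy chains, and Tap2 at 24 h against 0 h was -0.00081 with the block. With a library left out, H2-D1 ran from -0.016 to 0.065 at 12 h against 0 h, from -0.018 to 0.031 at 24 h against 0 h and from -0.053 to 0.030 at 24 h against 12 h. B2m ran from -0.018 to 0.044, Tap2 from -0.072 to 0.065 and Psmb9 from -0.18 to 0.15 at 24 h against 0 h. Tap1 ran from -0.29 to 0.072 and Psmb8 from -0.061 to 0.25 at 12 h against 0 h, and Psmb8 from -0.033 to 0.23 and Erap1 from -0.060 to 0.035 at 24 h against 12 h. The cause was not tested. Psmb9 rests on 21 to 37 counts per library and Tap1 on 83 to 172, which limits what can be seen of them.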
